A study of Mus musculus with 23 samples.

Results

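Re-isolated control cells in this mouse series fell into 2 cohorts that the deposited column headers set apart: 5 of the 9 control libraries carry the suffix GoF and 4 do not. They are called marked and unmarked controls here, and keep the numbers of their headers, so the marked libraries are 1, 3, 6, 7 and 8 and the unmarked libraries are 1, 2, 3 and 4. Values of single libraries follow that order throughout. All 9 have the genotype WT and come from the iPAX3 line, embryonic stem cells made into myogenic progenitors, and all are labelled as donor-derived satellite cells that were recovered after engraftment. All 9 were made from lysates in Buffer RLT with the NEBNext low-input cDNA kit and the Nextera XT library kit. Cell type labels, genotype and kits therefore do not tell the cohorts apart. The rest of the 23 libraries are 4 re-isolated libraries with NICD1 overexpression (N1OE), 3 re-isolated libraries with Notch1 KO (N1KO), 3 cultured N1OE libraries and 4 cultured control libraries. The headers of the cultured controls and of a cultured N1OE library carry the suffix GoF too. The labels do not say what GoF means on a control, nor how many host animals or sorts stand behind a library, so p-values measure the spread between libraries, which may be technical. The descriptions of marked libraries 1, 3, 7 and 8 carry the suffix as well. That of marked library 6 lacks the suffix that its header carries. Run date, lane and host are not given, and any of them that moved with the suffix cannot be told apart from it.

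Satellite cells are the stem cells of skeletal muscle. They are marked by the transcription factor Pax7, are held out of the cell cycle in resting muscle, and on activation divide and pass through Myf5, Myod1 and Myog to fused, contractile fibres. Notch receptors, cut after a ligand has bound, send an intracellular domain to the DNA-binding protein Rbpj, and the targets that follow, of the Hes and Hey families, hold back differentiation. Satellite cells also make part of the collagen and laminin shell that surrounds them, while most interstitial collagen of muscle comes from fibro-adipogenic cells.

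The libraries held 16501661 to 28941840 reads in the listed genes in marked controls and 16600461 to 23959097 reads in unmarked controls. Values are in CPM, counts scaled to the same total in each library, and genes on X and Y were left out. Of 12767 genes tested with limma on the deposited log2 values, 3530 (27.6%) passed an adjusted p of 0.05, of which 1733 (13.6%) were higher and 1797 (14.1%) lower in marked controls, with a median log2 fold change of -0.01 over all tested genes. The cohorts did not overlap in 3061 genes (24.0%), with all marked libraries above in 1384 (10.8%) and below in 1677 (13.1%). Without marked library 6 the higher calls fell to 1106 and all calls to 2354. When library 6 was counted as unmarked, as its description has it, limma called 0 genes (2235 genes at an unadjusted p under 0.05), and limma-voom called 0 as well (2107 genes). In its values library 6 stood with the marked cohort: its correlation across genes was 0.88 to 0.92 with the other marked libraries and 0.78 to 0.83 with the unmarked ones.

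**Figure D1:**
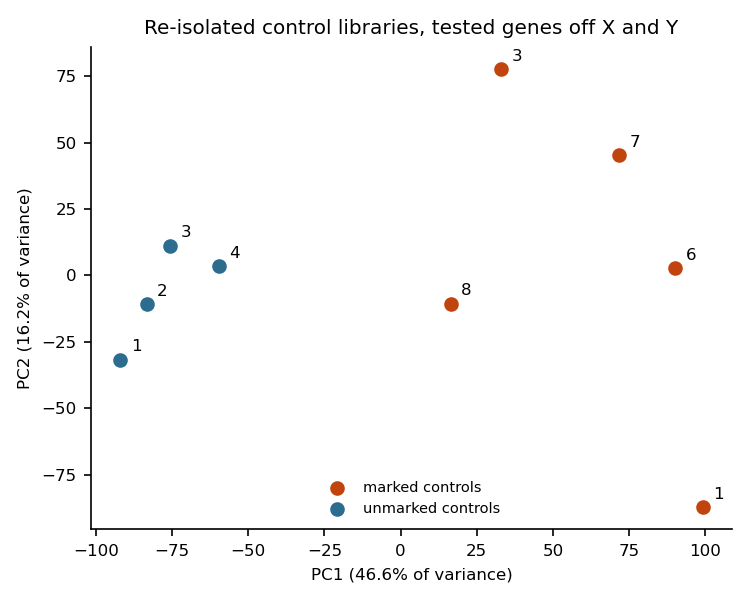
Principal components of the log2 CPM of tested genes in the 9 re-isolated control libraries (x axis, PC1 with 46.6% of the variance; y axis, PC2 with 16.2%); each point is a library with its header number. Marked libraries lie between 16.5 and 99.2 on PC1 and unmarked libraries between -92.0 and -59.6, and marked libraries 1 (-87.3) and 3 (77.8) lie farthest apart on PC2.

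The marked controls varied more among themselves. Their pairwise correlations across genes ran between 0.83 and 0.92, against 0.91 to 0.94 among unmarked controls and 0.77 to 0.88 between the cohorts. The median SD of log2 CPM over genes was 0.51 in marked and 0.43 in unmarked controls. Marked library 8 was the marked library most like the unmarked ones (0.85 to 0.88), and marked library 1 the least (0.77 to 0.81). A feature of low counts also split the cohorts: genes with exactly 1 read outnumbered genes with exactly 2 reads by 5.91, 5.69, 4.17, 4.55 and 5.57 to 1 in marked libraries and by 1.50, 1.08, 1.21 and 1.29 to 1 in unmarked libraries. The exact permutation test gave p = 0.0159, two-sided, the smallest that 5 against 4 libraries allow, and 0.0795 after adjustment over 5 library measures. The same ratio was 4.18 to 6.82 in the re-isolated N1OE libraries and 1.25 to 1.40 in the N1KO libraries. Its part in the differences that follow was not tested.

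Myogenic genes were mostly lower in marked controls, and the contractile genes most evenly so. Over the 8 myogenic lists, 11 of 140 tested members rose and 65 fell, with a median log2 fold change of -1.15. Among myogenic regulators 2 of 19 rose and 9 fell. Counts of 1 to 3 members in a direction rest on few genes: over all 41 lists 25 of 37 such counts moved by over 1.5 times without some 1 library. Myod1 (chr7:46376474-46379099, + strand, mm10), the determination factor of activated myoblasts, had 5.70, 35.3, 5.06, 17.5 and 38.4 CPM in marked controls and 84.3, 113, 182 and 213 CPM in unmarked controls. Every marked library lay below every unmarked one, and the difference on the log2 scale was -3.23 ± 0.60 (SE, adjusted p = 0.00280). Myf6, a later factor of the same family, fell too (log2 fold change -3.32 ± 0.47, adjusted p = 0.000717). Id1, which blocks these factors by binding their partners, fell alongside them, with 21.2 to 104 CPM in marked and 203 to 303 CPM in unmarked controls (log2 fold change -2.34 ± 0.40, adjusted p = 0.00192). Myf5, which precedes Myod1, and Myog, which follows it, did not pass the test. Myog had 93.3, 270, 130, 247 and 145 CPM in marked and 129, 94.2, 170 and 167 CPM in unmarked controls (log2 fold change 0.26 ± 0.33, adjusted p = 0.576). The Myf5 difference was -0.37 ± 0.47 (adjusted p = 0.584), and library 1 was the lowest of the marked libraries for Myf5, Myog and Pax7. The transcriptional coactivator gene Eya2 was among the regulators that rose (log2 fold change 2.08 ± 0.48, adjusted p = 0.00824).

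Satellite cell markers were expressed in both cohorts. Of 22 members, 2 rose and 8 fell (median log2 fold change -0.43), and the lower calls were 4 without marked library 6 or unmarked library 3. Pax7 had 11.5, 61.6, 28.1, 37.6 and 37.6 CPM in marked controls and 51.8, 113, 92.2 and 72.3 CPM in unmarked controls. Marked library 3 lay above unmarked library 1, and the fall (log2 fold change -1.35 ± 0.42, adjusted p = 0.0310) was lost without unmarked library 2, 3 or 4 or marked library 6 (adjusted p = 0.0980, 0.0766, 0.0534 and 0.0643). M-cadherin, Cdh15, which holds the satellite cell to its fibre, had 120, 561, 223, 302 and 475 CPM in marked and 711, 937, 1174 and 1016 CPM in unmarked controls. It was lower in each marked library (log2 fold change -1.69 ± 0.40, adjusted p = 0.00908). Chodl, a membrane lectin (-2.97 ± 0.55, adjusted p = 0.00300), and Sdc4, a heparan sulfate proteoglycan of the satellite cell surface (-1.99 ± 0.31, adjusted p = 0.00110), fell as well. Cd34, which fibro-adipogenic and endothelial cells carry too, rose (log2 fold change 1.96 ± 0.32, adjusted p = 0.00141), with 120 to 205 CPM in marked and 26.0 to 82.5 CPM in unmarked controls. Vcam1 and Calcr did not pass the test. The 22 markers summed to 4345 to 6092 CPM in marked and 6268 to 7657 CPM in unmarked controls, so the sums did not overlap. The gap was narrow: without Cdh15 the sum of marked library 3 lay above that of unmarked library 3. In bulk RNA, fewer cells of a type and less RNA per cell cannot be told apart.

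Of 33 sarcomere and contractile genes 27 fell and 0 rose, with a median log2 fold change of -1.99; the count of falls stayed within a factor of 1.5 without any single library. Tnnt1, slow skeletal troponin T, had 3.59, 24.7, 8.26, 7.82 and 24.7 CPM in marked and 213, 180, 418 and 211 CPM in unmarked controls (log2 fold change -4.48 ± 0.52, adjusted p = 0.000295). Muscle creatine kinase, Ckm, which regenerates ATP at the myofibril, had 11.2, 49.8, 12.5, 50.3 and 26.5 CPM against 154, 113, 193 and 163 CPM in unmarked controls (-2.62 ± 0.45, adjusted p = 0.00186). Acta1, skeletal actin, fell by less (-1.89 ± 0.36, adjusted p = 0.00332). All 3 genes were lower in every marked library, and in each the marked libraries 3 and 8 were higher than library 1. Excitation and calcium handling genes followed, with 10 of 20 lower and 0 higher, among them the coupling protein gene Stac3 (-3.77 ± 0.62, adjusted p = 0.00156) and the calcium pump gene Atp2a1 (-2.86 ± 0.55, adjusted p = 0.00341).

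Myosin heavy chains did not move as 1 group: of 8 genes 2 rose and 3 fell, and 0 to 1 fell without marked library 1, 6 or 7 or any 1 unmarked library. Myh1, an adult fast chain, had 122, 218, 177, 190 and 144 CPM in marked and 60.0, 31.6, 68.3 and 88.3 CPM in unmarked controls (log2 fold change 1.52 ± 0.30, adjusted p = 0.00369). Each marked library was above each unmarked one. Its neighbours in the gene cluster are close in sequence, and reads shared among them could be assigned to the wrong member. Myh3, the embryonic chain, had 10.3, 75.4, 43.7, 3.51 and 86.3 CPM in marked and 19.1, 20.4, 20.0 and 92.3 CPM in unmarked controls and did not pass the test (-0.20 ± 0.87, adjusted p = 0.883). Library 4 was the one high unmarked library.

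Mymk, the membrane protein that drives myoblast fusion, had 14.3, 40.3, 19.9, 15.6 and 46.1 CPM in marked and 92.5, 81.3, 153 and 108 CPM in unmarked controls (-2.12 ± 0.37, adjusted p = 0.00214). Myof, a ferlin of membrane repair and fusion, had 138, 125, 174, 131 and 100 CPM in marked and 18.4, 20.5, 29.3 and 26.7 CPM in unmarked controls (2.49 ± 0.23, adjusted p = 0.000100). Neither gene overlapped between the cohorts. Of all 11 tested fusion and membrane repair genes 2 rose and 2 fell, shares near those over all tested genes, the falls being 1 without unmarked library 3 or 4 or marked library 7.

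**Figure D2:**
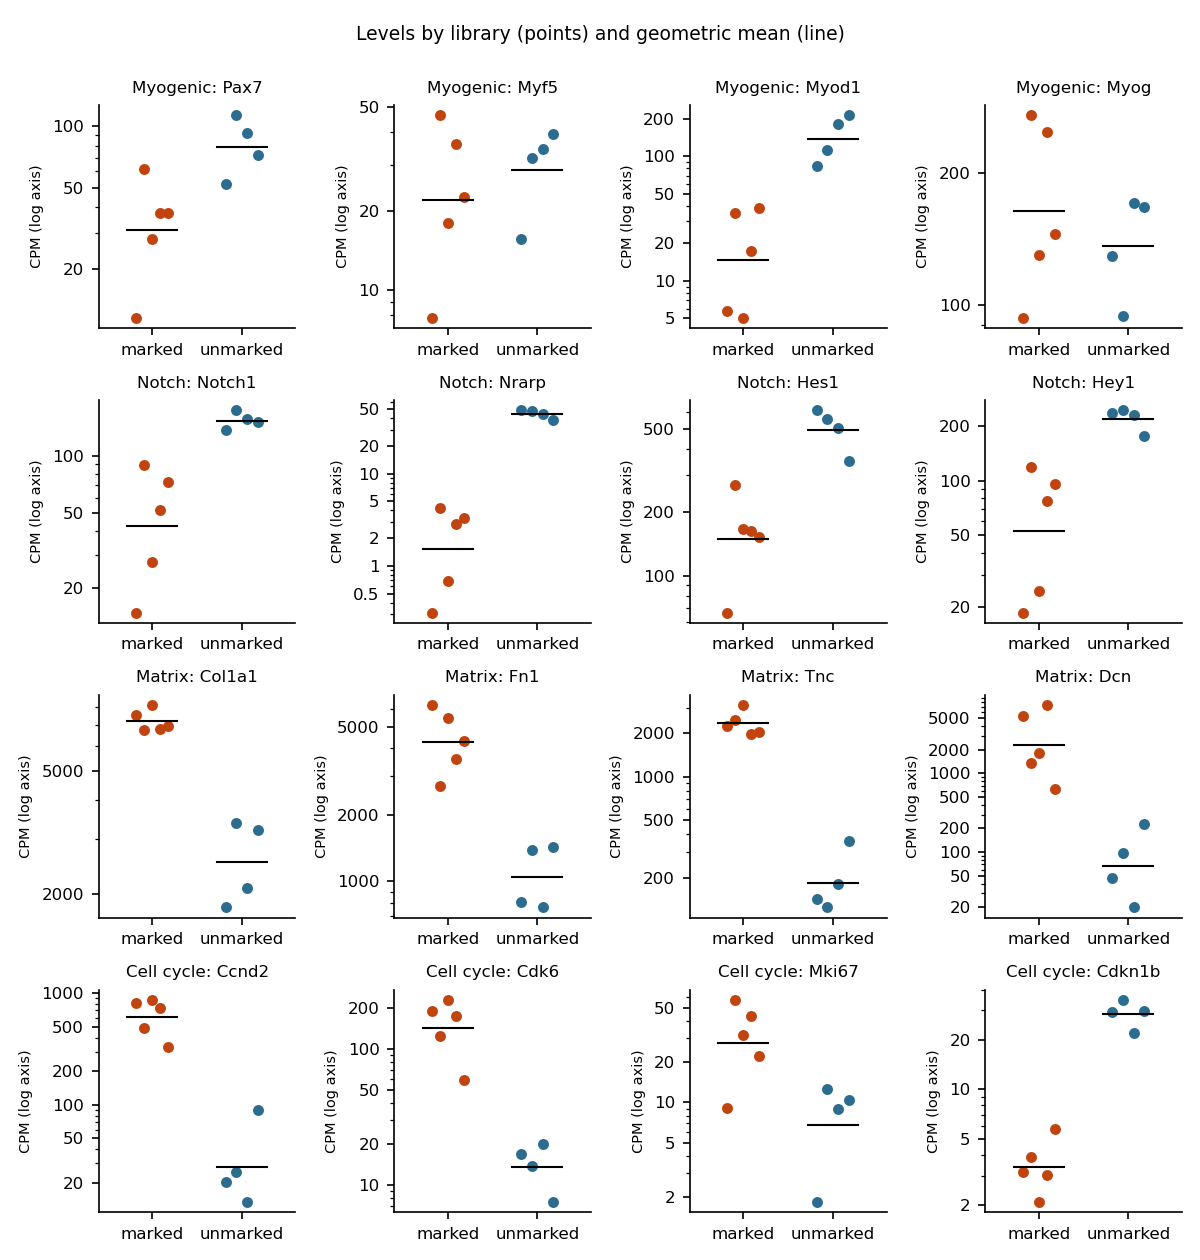
CPM on a log axis for 4 myogenic, 4 Notch, 4 matrix and 4 cell cycle genes in marked (left, red) and unmarked (right, blue) re-isolated controls; points are libraries in header order and lines are geometric means. Myod1, Notch1, Nrarp, Hes1, Hey1 and Cdkn1b lie lower in all 5 marked libraries, Col1a1, Fn1, Tnc, Dcn, Ccnd2 and Cdk6 higher in all 5, and Pax7, Myf5, Myog and Mki67 overlap.

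Over the Notch lists together 11 of 59 tested members rose and 13 fell in marked controls (median log2 fold change -0.11). Of 18 Notch target genes 8 were called lower and 1 higher (median log2 fold change -0.73). The lower calls were 5 without unmarked library 2 or marked library 6. The target sums overlapped, at 2853 to 4324 CPM in marked and 3842 to 5579 CPM in unmarked controls. With limma 0 of 5 tested ligands and 2 of 21 processing genes were called lower, beside 14.1% of all tested genes. Nrarp (chr2:25180758-25183339, + strand), a feedback inhibitor that binds the Notch complex, had 0.311, 4.20, 0.693, 2.85 and 3.30 CPM in marked controls and 49.0, 48.3, 44.2 and 38.1 CPM in unmarked controls. The unmarked libraries were close to each other and the highest marked library lay far below them (log2 fold change -4.78 ± 0.65, adjusted p = 0.000585). Dtx1, an E3 ligase that acts on the receptor, was at 0 to 0.157 CPM in marked and 3.49 to 6.55 CPM in unmarked controls (-5.78 ± 0.76, adjusted p = 0.000506). Hes1, a repressor and a classical target, had 66.7, 269, 166, 164 and 153 CPM in marked and 613, 554, 503 and 350 CPM in unmarked controls (-1.72 ± 0.34, adjusted p = 0.00426). Hey1, a related repressor linked to satellite cell quiescence, had 18.7, 120, 24.6, 77.1 and 96.4 CPM in marked and 236, 246, 230 and 178 CPM in unmarked controls (-2.06 ± 0.50, adjusted p = 0.0103). In all 4 genes the cohorts did not overlap, and marked libraries 1 and 6 were the lowest for Nrarp and Hey1. Heyl, the third Hey gene, fell too (-1.86 ± 0.53, adjusted p = 0.0234), a call lost without unmarked library 2 or 3 or marked library 6 (adjusted p = 0.0587, 0.0636 and 0.0562). Ccnd1, listed as a target in other tissues, was the member that rose.

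Promoter windows of Notch targets are shown because the target list held the most genes called lower among the Notch lists. Rbpj binds the 7 letters GTGGGAA, and the 300-base windows of RefSeq (GRCm38.p6, 250 bases before to 50 after the start) were searched for it on both strands. Of the 18 listed targets 10 had a window, 5 of these were past the threshold, and 2 of the 5 windows held the motif, each on both strands; those of Nrarp, Dtx1 and Id4 held none. Over all 32851 windows 6.38% held the motif at least once and 0.256% at least 2 times. The windows lie at chr4:154960673-154960972 (+ strand) for Hes5 and chr10:30842734-30843033 (- strand) for Hey2, are printed 5′ to 3′ on the gene's strand, and have the motif and its reverse complement in capitals.
Hes5: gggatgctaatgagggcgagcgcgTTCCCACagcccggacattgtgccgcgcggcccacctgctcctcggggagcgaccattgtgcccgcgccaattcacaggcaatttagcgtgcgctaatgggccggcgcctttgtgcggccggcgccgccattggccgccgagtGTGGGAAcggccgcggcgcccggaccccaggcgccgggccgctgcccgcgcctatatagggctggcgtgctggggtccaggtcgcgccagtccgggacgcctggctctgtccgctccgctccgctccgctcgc
Hey2: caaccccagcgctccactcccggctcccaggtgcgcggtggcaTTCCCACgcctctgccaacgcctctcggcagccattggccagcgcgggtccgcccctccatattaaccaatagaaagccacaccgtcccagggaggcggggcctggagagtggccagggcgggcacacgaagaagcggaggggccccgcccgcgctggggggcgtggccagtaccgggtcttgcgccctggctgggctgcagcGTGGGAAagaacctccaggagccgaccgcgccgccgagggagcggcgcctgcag
A match describes the letters only. Hes5, a Hes repressor, had 0.311, 0.804, 0.160, 0 and 1.36 CPM in marked and 8.89, 3.84, 3.79 and 16.3 CPM in unmarked controls (log2 fold change -4.29 ± 0.91, adjusted p = 0.00554). Hey2 had 5.32, 2.41, 3.84, 4.73 and 3.09 CPM in marked and 10.7, 8.64, 6.09 and 9.28 CPM in unmarked controls (-1.18 ± 0.35, adjusted p = 0.0269). Both were lower in every marked library; the Hey2 call was lost without unmarked library 1, 2 or 4 or marked library 6 (adjusted p = 0.0694, 0.0647, 0.0632 and 0.0537).

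Among the 4 receptors, Notch1 (chr2:26457903-26516663, - strand) had 14.9, 88.9, 27.5, 52.0 and 72.9 CPM in marked and 136, 174, 156 and 150 CPM in unmarked controls. It fell in marked controls (log2 fold change -1.85 ± 0.44, adjusted p = 0.00978) with no overlap; all of these libraries carry the genotype WT. Notch4, known from endothelium, fell as well (-1.49 ± 0.43, adjusted p = 0.0235), a call lost without unmarked library 1 or 2 or marked library 6 (adjusted p = 0.0688, 0.0604 and 0.0569). Notch3 (-0.98 ± 0.52, adjusted p = 0.175) and Notch2 (0.10 ± 0.23, adjusted p = 0.777) did not pass. The ligand genes Dll1 and Jag1 and the DNA-binding partner Rbpj did not pass either, with Rbpj at 44.5 to 77.0 CPM in marked and 33.5 to 65.7 CPM in unmarked controls (0.40 ± 0.26, adjusted p = 0.282).

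Dlk1, a non-canonical ligand of the Delta family that is expressed in fetal and regenerating muscle, went the other way. It had 90.5, 515, 224, 641 and 35.2 CPM in marked and 4.66, 3.80, 4.10 and 25.3 CPM in unmarked controls (log2 fold change 4.83 ± 0.81, adjusted p = 0.00178). The lowest marked library, 8, was just above the highest unmarked library, 4. In the processing machinery 3 of 21 genes rose and 2 fell (5 rises without marked library 1). These shares are near the 13.6% higher and 14.1% lower over all tested genes. The gamma-secretase subunit gene Ncstn had 220 to 347 CPM in marked and 74.9 to 117 CPM in unmarked controls (1.51 ± 0.22, adjusted p = 0.000762). Psen2, a catalytic subunit gene of the same complex, had 12.5 to 20.4 CPM in marked and 36.7 to 84.7 CPM in unmarked controls (-1.63 ± 0.29, adjusted p = 0.00244). So the subunits of 1 complex differed in direction. Of 12 nuclear cofactors 5 rose and 1 fell, the rises being 2 without unmarked library 2 and 3 without unmarked library 3 or marked library 6 or 7; the coactivator Maml3 rose by 1.38 ± 0.28 on the log2 scale (adjusted p = 0.00459).

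The re-isolated N1OE and N1KO libraries can be set beside these control values, though Notch1 is itself the changed gene in both. Notch1 stood at 98.1 to 257 CPM in N1OE and 15.6 to 52.6 CPM in N1KO libraries, so marked controls reached down into the N1KO range and unmarked controls lay within the N1OE range. Hey1 stood at 177 to 288 CPM in N1OE and 19.1 to 70.8 CPM in N1KO libraries, and was placed likewise. Nrarp did not follow that order: it had 6.01 to 16.6 CPM in N1OE and 0.787 to 17.9 CPM in N1KO libraries, and the unmarked controls exceeded both. Hes1 had 205 to 438 CPM in N1OE and 336 to 451 CPM in N1KO libraries. These are levels beside each other, and no test was run between the cohorts and the N1OE or N1KO groups.

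Matrix genes formed the largest block of higher genes among the 4 themes described here. Over the 9 matrix lists 74 of 174 tested members rose and 14 fell (median log2 fold change 0.79). Of 11 fibrillar collagens 6 rose and 0 fell (median 1.52). Col1a1, the main chain of type I collagen, had 7584, 6762, 8145, 6788 and 6990 CPM in marked and 1804, 3383, 2089 and 3202 CPM in unmarked controls (log2 fold change 1.52 ± 0.28, adjusted p = 0.00306). The marked libraries were nearly level and all above the unmarked ones. Col3a1, which overlapped, did not pass (1.05 ± 0.39, adjusted p = 0.0611). Col5a1, described as a Notch-driven collagen of the quiescent satellite cell niche in mouse, had 853, 348, 792, 503 and 475 CPM in marked and 129, 170, 154 and 204 CPM in unmarked controls (1.80 ± 0.28, adjusted p = 0.00125). It rose while 8 of the 18 Notch target genes fell. Of the microfibril and network collagens 6 of 11 rose and 0 fell, with Col6a3, a chain of the type VI collagen around fibres, at 403 to 1173 CPM in marked and 55.7 to 108 CPM in unmarked controls (3.34 ± 0.35, adjusted p = 0.000169).

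Glycoprotein and elastic fibre genes had the highest share of rises among the matrix lists, 20 of 33, with 2 lower (median log2 fold change 1.72). Tnc, tenascin C of regenerating and tendon matrix, had 2239, 2467, 3142, 1987 and 2049 CPM in marked and 142, 125, 181 and 362 CPM in unmarked controls (3.66 ± 0.31, adjusted p = 7.90e-05). Fibronectin, Fn1, had 6260, 2684, 5487, 3553 and 4289 CPM in marked and 810, 1380, 763 and 1437 CPM in unmarked controls (2.02 ± 0.33, adjusted p = 0.00143). Ltbp1, which stores latent TGF-beta in the matrix, had 554 to 935 CPM in marked and 75.3 to 107 CPM in unmarked controls (3.05 ± 0.21, adjusted p = 2.89e-05). None of these 3 genes overlapped between the cohorts. Osteopontin, Spp1, fell, with 704, 1602, 321, 412 and 2653 CPM in marked and 3216, 3028, 3390 and 6457 CPM in unmarked controls (-2.20 ± 0.56, adjusted p = 0.0133), as did vitronectin, Vtn (-2.42 ± 0.47, adjusted p = 0.00369).

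Among 17 tested proteoglycan and hyaluronan genes 8 rose and 2 fell. Decorin, Dcn (chr10:97479609-97518143, + strand), a small collagen-binding proteoglycan, had 5365, 1364, 1786, 7367 and 640 CPM in marked and 46.5, 96.8, 19.9 and 227 CPM in unmarked controls (5.08 ± 0.76, adjusted p = 0.000996). Libraries 1 and 7 were the highest marked ones and library 4 the highest unmarked one. Of 21 tested basement membrane genes 9 rose and 2 fell; the laminin chain gene Lama4 rose (1.95 ± 0.29, adjusted p = 0.000958), while Col4a1 (-0.19 ± 0.26, adjusted p = 0.614) and Lama2 (0.82 ± 0.30, adjusted p = 0.0638), chains of the main basement membrane collagen and laminin of muscle, did not pass.

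Enzymes that act on collagen moved in both directions. Of 21 modifying and crosslinking genes 8 rose and 2 fell, the rises being 4 without unmarked library 2 or marked library 6 or 7 and 5 without unmarked library 1 or 3. The prolyl hydroxylase gene P3h1 had 349 to 492 CPM in marked and 97.6 to 171 CPM in unmarked controls (1.66 ± 0.21, adjusted p = 0.000455), and P4ha1, another prolyl hydroxylase subunit gene, had 151 to 271 CPM in marked and 333 to 612 CPM in unmarked controls (-1.15 ± 0.24, adjusted p = 0.00508). Mmp2, a gelatinase, rose (2.12 ± 0.33, adjusted p = 0.00111), within a remodelling list of which 5 of 27 rose and 3 fell. Its inhibitor gene Timp3 and the crosslinking enzyme gene Lox did not pass. Of 15 CCN and TGF-beta genes 7 rose and 2 fell (4 rises without unmarked library 3 or marked library 6): Tgfb3 rose (1.72 ± 0.25, adjusted p = 0.000878) and Tgfb1 fell (-1.97 ± 0.35, adjusted p = 0.00243). Of 19 integrin subunits 6 rose and 1 fell, with 3 rises without unmarked library 2 or 3.

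Markers of matrix-making cells were in part matrix genes themselves: Dcn stood on both a matrix list and the fibro-adipogenic list. Of 11 tested fibro-adipogenic markers 3 rose and 0 fell (median log2 fold change 1.29): Dcn, Cd34 and Smoc2, a matricellular protein gene (4.30 ± 1.09, adjusted p = 0.0133). Without unmarked library 4 the rises were 5. Pdgfra and Ly6a were among those that did not pass, and Tcf21 had 0 reads in all 9 libraries. The 12 markers summed to 10581, 3281, 4089, 12745 and 3598 CPM in marked and 1048, 1787, 1601 and 2207 CPM in unmarked controls. The sums did not overlap, and libraries 1 and 7, highest in Dcn, were highest in the sum, of which Dcn is a part. The gap rests on Dcn: without it the sum of marked library 3 lay below that of unmarked library 4. Of 7 tested tenocyte and chondrocyte markers 3 rose and 1 fell, the risers being Thbs4, Fmod and Mkx, with sums of 847 to 2247 CPM in marked and 892 to 1201 CPM in unmarked controls. The faller was Sox9, with 249 to 522 CPM in marked and 810 to 1130 CPM in unmarked controls (-1.26 ± 0.24, adjusted p = 0.00347). Pericyte and smooth muscle markers had 1 rise and 2 falls among 11 (median log2 fold change -0.83), with sums of 1787 to 3232 CPM in marked and 1072 to 1846 CPM in unmarked controls. Most of each sum was Acta2, the riser, at 1541 to 3023 CPM in marked and 627 to 1551 CPM in unmarked controls. The Acta2 call was lost without unmarked library 1 or 2 or marked library 6 (limma adjusted p = 0.0531, 0.0677 and 0.0511). Without Acta2 the sum was lower in every marked library. The part of such cells in the matrix differences was not tested.

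**Figure D3:**
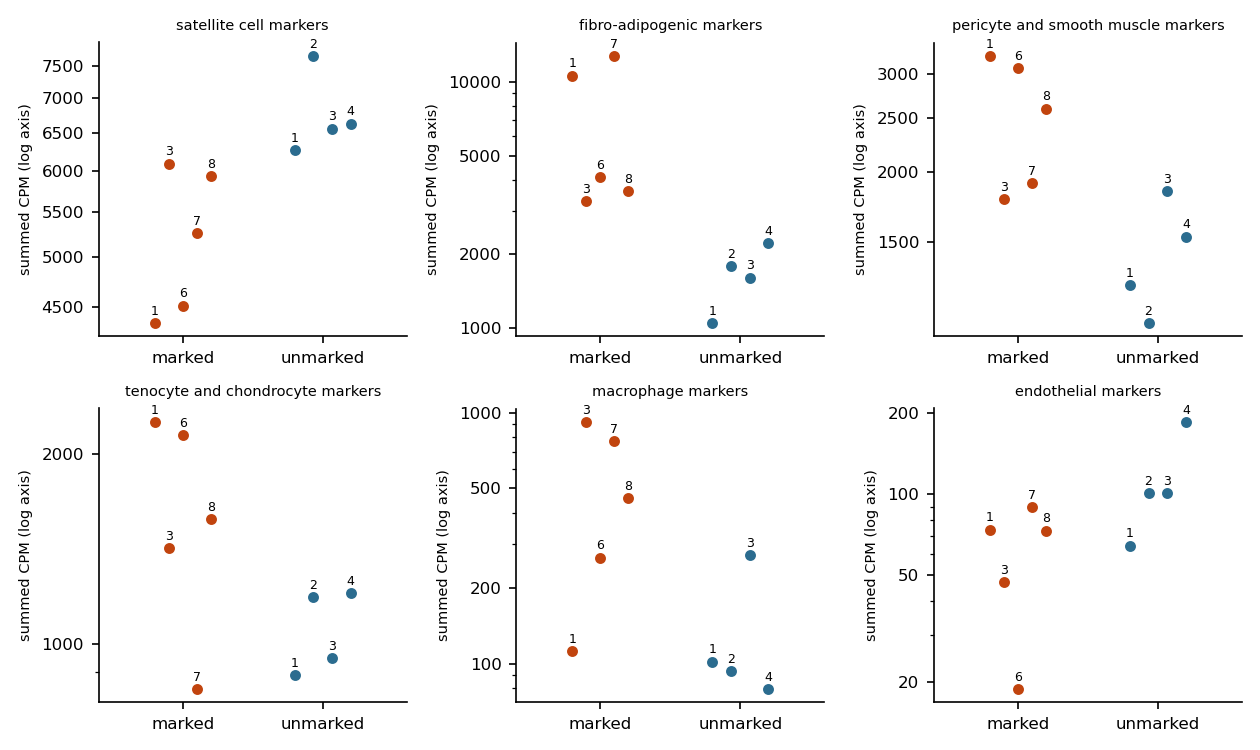
Summed CPM of the markers of 6 cell types (log axis) in marked (left, red) and unmarked (right, blue) re-isolated controls; each point is a library with its header number. Satellite cell sums (4345 to 6092 against 6268 to 7657 CPM) and fibro-adipogenic sums (3281 to 12745 against 1048 to 2207 CPM) do not overlap between marked and unmarked libraries, and the other 4 overlap. The satellite cell gap closes without Cdh15 and the fibro-adipogenic gap without Dcn. Pericyte and smooth muscle sums consist largely of Acta2.

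Macrophage markers summed to 112, 921, 265, 771 and 457 CPM in marked and 102, 93.1, 270 and 79.2 CPM in unmarked controls. Of 14 tested 4 rose and 0 fell, with 1 rise without unmarked library 1 or 2 or marked library 7 and 2 without marked library 3 or unmarked library 4; without marked library 1 the rises were 7. The lysozyme gene Lyz2 had 44.9, 384, 95.0, 452 and 92.5 CPM in marked and 4.03, 10.8, 69.1 and 6.08 CPM in unmarked controls (3.65 ± 0.83, adjusted p = 0.00792). Unmarked library 3 lay within the marked range. Endothelial markers had 1 rise and 2 falls among 11, Schwann and glial markers 0 rises and 2 falls among 8, lymphocyte and neutrophil markers 1 fall among 2, adipocyte markers 1 fall among 3, epithelial markers 1 fall among 4, and neuronal markers 0 calls among 5 with limma. No erythroid marker reached the filter.

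Many genes of DNA replication and mitosis were higher in marked controls, though their summed levels overlapped between the cohorts. A few regulators of entry into the cycle were higher too. Over the 4 proliferation lists 38 of 113 members rose and 4 fell (median log2 fold change 0.85). Of these, 2 rises and 3 falls were of the list of cell cycle inhibitors. Cyclin D2, Ccnd2 (chr6:127125162-127152193, - strand), had 822, 492, 872, 738 and 332 CPM in marked and 20.2, 25.2, 13.4 and 89.3 CPM in unmarked controls (4.45 ± 0.48, adjusted p = 0.000175). Its kinase partner Cdk6 had 191, 124, 229, 174 and 59.2 CPM in marked and 16.7, 13.6, 19.8 and 7.41 CPM in unmarked controls (3.38 ± 0.40, adjusted p = 0.000321). Ccnd1, cyclin D1, had 965, 738, 1150, 904 and 513 CPM in marked and 357, 259, 272 and 258 CPM in unmarked controls (1.54 ± 0.26, adjusted p = 0.00166). In all 3 the marked libraries were above the unmarked ones and library 8 was the lowest marked library. Of 17 genes of this G1 list 5 rose and 0 fell, a count that stayed within a factor of 1.5 without any single library.

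Cdkn1b, the p27 inhibitor that holds quiescent satellite cells out of the cycle, had 3.18, 3.89, 2.08, 3.03 and 5.77 CPM in marked and 29.2, 34.8, 22.0 and 29.8 CPM in unmarked controls (-3.05 ± 0.33, adjusted p = 0.000175). The growth arrest gene Gas1 had 17.1, 86.4, 33.9, 35.6 and 83.2 CPM in marked and 408, 448, 201 and 276 CPM in unmarked controls (-2.88 ± 0.45, adjusted p = 0.00117). Both were lower in every marked library. Cdkn1a, the p21 inhibitor, did not pass (-0.48 ± 0.21, adjusted p = 0.118). Of 18 inhibitor genes 2 rose and 3 fell, shares near those over all tested genes, and the rises were 0 without marked library 1, 7 or 8 or unmarked library 2 or 3. Of 18 tested quiescence genes 2 rose and 5 fell (median log2 fold change -0.43), with Rgs5 and Rgs2, regulators of G protein signalling, among the falls (-2.42 ± 0.52, adjusted p = 0.00576, and -1.96 ± 0.44, adjusted p = 0.00780). Of 9 tested genes of premyogenic mesoderm 1 rose and 1 fell, the fall being that of Foxc2, a forkhead factor of paraxial mesoderm (-3.81 ± 0.77, adjusted p = 0.00453).

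Of 38 DNA replication genes 15 rose and 1 fell (median log2 fold change 0.97), and of 40 tested mitosis genes 16 rose and 0 fell (median 1.28). These counts depended on single libraries: the replication rises were 8 without unmarked library 1, 6 without unmarked library 2 and 8 without marked library 6, and the mitosis rises were 5, 7, 9, 7 and 8 without unmarked library 1, unmarked library 2, marked library 3, marked library 6 and marked library 7. The replication genes summed to 723 to 1965 CPM in marked and 621 to 863 CPM in unmarked controls. The mitosis genes summed to 321 to 1356 CPM in marked and 239 to 432 CPM in unmarked controls. Marked library 1 had the lowest marked sum in both lists, within the unmarked range. Rrm1, the large subunit of ribonucleotide reductase, had 169, 172, 201, 161 and 162 CPM in marked and 43.9, 40.0, 40.9 and 52.2 CPM in unmarked controls (1.97 ± 0.18, adjusted p = 0.000102). The kinase gene Cdk1 had 18.6, 51.9, 41.4, 44.6 and 16.7 CPM in marked and 10.8, 8.56, 14.2 and 12.6 CPM in unmarked controls (1.46 ± 0.37, adjusted p = 0.0131). Neither overlapped, and marked libraries 1 and 8 lay nearest to the unmarked ones for Cdk1. The proliferation marker Mki67 had 9.16, 57.6, 31.8, 43.6 and 22.2 CPM in marked and 1.82, 12.6, 8.91 and 10.5 CPM in unmarked controls (2.01 ± 0.61, adjusted p = 0.0303). That call was lost without unmarked library 1 or 3 or marked library 3, 6 or 7 (adjusted p = 0.0818, 0.0507, 0.0515, 0.0614 and 0.0642). Pcna (-0.06 ± 0.27, adjusted p = 0.888) and Top2a (0.86 ± 0.37, adjusted p = 0.100) did not pass.

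**Figure D4:**
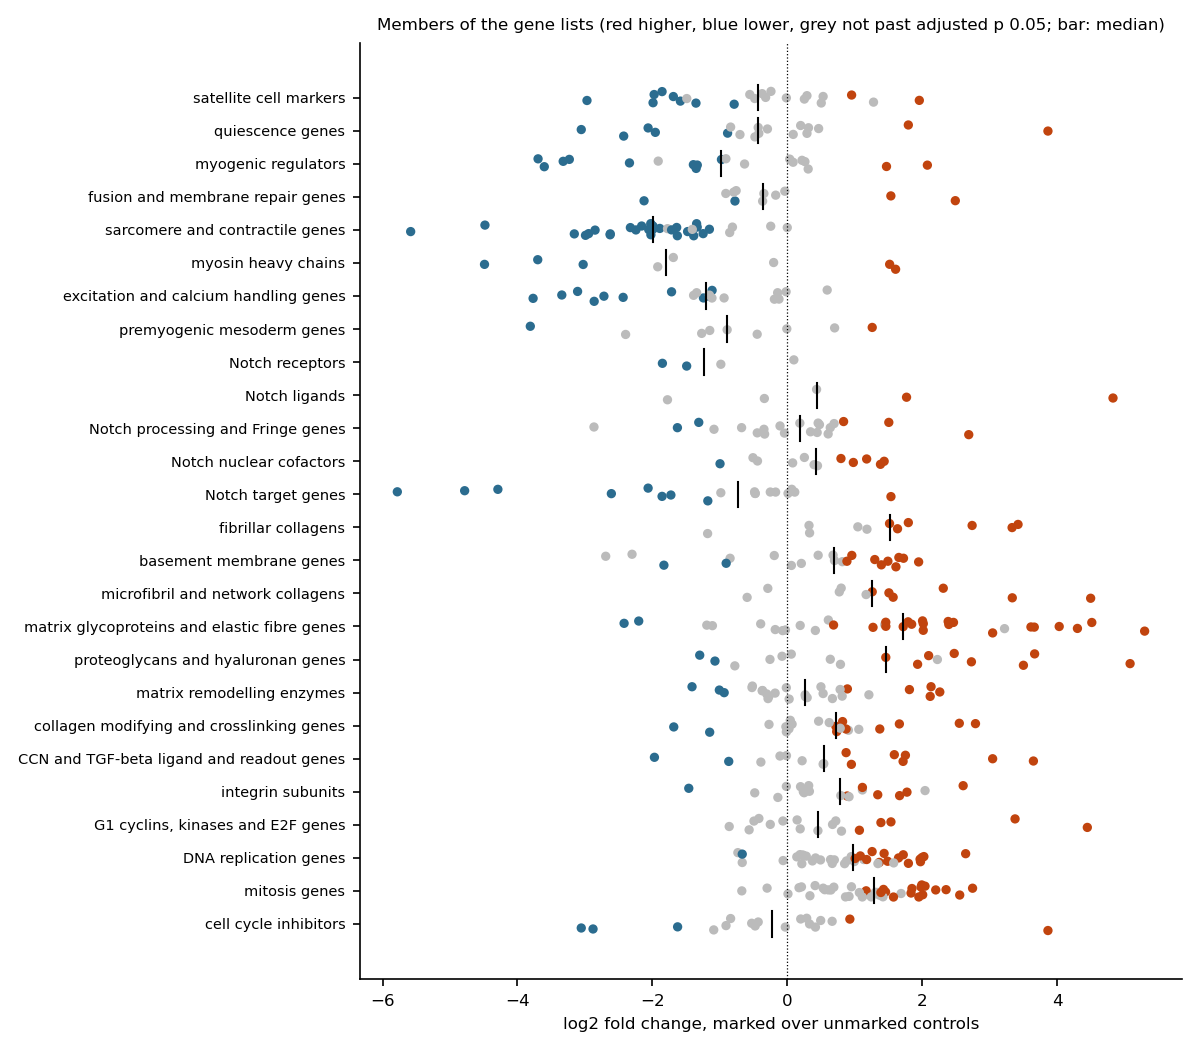
Log2 fold change, marked over unmarked controls (x axis), of the tested members of the 26 lists on myogenic, Notch, matrix and proliferation genes; red points were higher and blue points lower at a limma adjusted p of 0.05, grey points did not pass, and black bars are list medians. Medians run between -1.99 for sarcomere genes and 1.72 for matrix glycoproteins.

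Metabolic and stress genes moved as well. Of 24 glycolysis genes 15 fell and 0 rose, of 11 tested mitochondrially encoded genes 7 fell and 0 rose, and of 74 cytosolic ribosomal protein genes 22 fell and 0 rose (12 to 14 without unmarked library 3 or 4 or marked library 6 or 7; pseudogene copies make single ribosomal genes uncertain). The mitochondrially encoded share of reads overlapped, at 0.434% to 1.21% in marked and 0.836% to 2.03% in unmarked controls (exact permutation test, p = 0.143, adjusted p = 0.357). Among 25 early response genes that tissue dissociation is known to induce 9 fell and 1 rose, their summed level being 12993 to 44995 CPM in marked and 33170 to 48032 CPM in unmarked controls. Ier3, an early response gene, had 49.4, 63.2, 47.4, 32.1 and 93.7 CPM in marked and 477, 662, 627 and 523 CPM in unmarked controls (-3.40 ± 0.28, adjusted p = 7.90e-05). The part of tissue dissociation in these differences was not tested.

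The largest changes were close to a presence in 1 cohort. The brain aldolase gene Aldoc had 3 reads in all marked controls together and 39.2 to 74.6 CPM in each unmarked library, an unmarked to marked ratio of 1931 (95% counting interval 660 to 9367). The water channel gene Aqp4 had 1 read in marked controls, the ratio being 1486 (266 to 58730). Ckmt2, sarcomeric mitochondrial creatine kinase, had 0 to 0.419 CPM in marked and 21.4 to 27.9 CPM in unmarked controls (log2 fold change -7.21 ± 0.66, adjusted p = 0.000100). In the other direction Luzp2, a leucine zipper protein gene, had 1.42 to 26.9 CPM in marked controls and 0 reads in all unmarked controls, at least 334-fold higher against 3 reads over the cohort. C1qtnf3, a secreted C1q-related protein gene (chr15:10952332-10980150, + strand), had 21929, 3930, 19679, 10191 and 6382 CPM in marked and 105, 103, 234 and 384 CPM in unmarked controls (5.85 ± 0.55, adjusted p = 0.000102). The lowest marked library was above the highest unmarked one by a wide margin, and N1OE libraries had 674 to 1055 CPM and N1KO libraries 2038 to 7203 CPM.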

How the data were processed

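RNA was sequenced from 9 re-isolated control libraries of a series of 23. The submitters' processing notes name Trimmomatic 0.33, FastQC, featureCounts, edgeR and the mm10 build. For aligner and annotation, not given in the sources used here, nothing is assumed. The table the authors deposited lists 21264 genes in log2 CPM with a prior count, so that -4.19 means 0 reads. Whether it was adjusted before deposit is not known.

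CPM and whole reads were computed back from the deposited log2 values (tolerance 0.05 reads; 100% of low values came out whole in the 9 libraries). A single read was worth 0.0346 to 0.0606 CPM, so 3 reads were 0.104 to 0.182 CPM, and counting intervals cover counting error only. Positions came from GENCODE M21 (GRCm38), which held 21186 of the gene IDs; the 78 others and the 931 genes on X and Y were left out of every count. Tested genes reached 1 CPM in 3 or more of the 9 libraries; the test was limma 3.58.1 in R 4.3.3 (eBayes with trend, two-sided, Benjamini-Hochberg over all tested genes, threshold 0.05). Fold changes are differences of the deposited log2 values, marked minus unmarked, with limma's standard errors, so the prior count understates those of low genes. The fit was tested on simulated data. The alternatives were other filters, pseudocounts, scaling and weights, all 16 re-isolated libraries in 1 fit, cohorts by description, a replicate block, each library left out, and limma-voom on the recovered reads.

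Named genes are a list of 50 core genes, up to 3 per direction of each of 41 lists with the smallest adjusted p, and the 10 largest rises and falls without overlap and with at least 5 CPM in the higher cohort; the text prints part of these. Hey2, Pdgfra, Ly6a and the genes of the last part were named after their values were seen. The members and lists were chosen with earlier results of these data known. Promoter windows are RefSeq's. Figures were drawn with matplotlib 3.10.9.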

Additional observations from a re-analysis of the deposited data

Results flagged for a closer look

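In each cohort a value was looked at again when its gap to the nearest other library was large for the range of the cohort on the log2 scale, and 11 of 202 sets of values met this; chance alone gives about 1 in 20. In 5 genes unmarked library 4 stood above the other 3 unmarked libraries. Its Myh3 level was 92.3 CPM, against 19.1 to 20.4 CPM in the others. Its Dlk1 level was 25.3 CPM, against 3.80 to 4.66 CPM. Its Spp1 level was 6457 CPM, against 3028 to 3390 CPM. Mkx, a tendon transcription factor gene, was at 1.93 CPM there, against 0.307 to 0.376 CPM. Crabp1 was at 0.361 CPM there and at 0 in the others. For Dlk1, Mkx and Crabp1 the value lies toward the marked cohort, and for Spp1 away from it.

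Unmarked library 1 stood apart in 4 measures. Ccnd1 was at 357 CPM, against 258 to 272 CPM in the other unmarked libraries. Eya2 was lower there, at 0.786 CPM, against 3.74 to 4.10 CPM, and Id1 at 203 CPM, against 287 to 303 CPM. Mitochondrially encoded genes took 2.03% of its reads, against 0.836% to 1.04% in the others. Among marked controls, Hmga2 was at 0.839 CPM in library 8, against 3.52 to 5.45 CPM in the others, and Aqp4 was at 0.0606 CPM (1 read) in library 7 and at 0 in the others.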

How the results depend on the processing

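Counting library 6 as unmarked, as in its description, left 0 calls in all, 0 higher, 0 lower and 0 list members, with limma and with limma-voom; the cause was not tested. Leaving out each library gave 2354 to 3699 calls, 1106 to 1866 higher, 1205 to 1977 lower and 158 to 231 called members of the lists on the 4 themes, against 3530, 1733, 1797 and 224. Without marked libraries 1 and 6, 2553 genes were called. The filters, pseudocounts, median ratio scaling, weights, limma-voom, the 16-library fit and the removal of X and Y genes before the fit gave 3144 to 4788 calls, and no called gene turned direction in any setting. Planned edgeR tests were not run, since the deposited values are log2. Numbers 1 and 3 occur in both cohorts, and nothing in the labels ties them. Their deviations from the cohort means correlated at 0.06 and 0.12, against -0.15 to 0.10 for libraries of unlike number. So few pairs cannot settle whether the numbers pair libraries. The replicate block, whose contrast rests on numbers 1 and 3 alone, gave 708 calls (303 higher, 405 lower, 94 list members), 644 of them among the 3530. In a tally of 78 called genes named in the text, 73 passed without each library in turn, 52 under the block and 77 with limma-voom. The tally leaves out Acta2, whose call was lost without unmarked library 1 or 2 or marked library 6. Differences that did not pass and turned were those of Myf5 (-0.66 to 0.00 with a library left out, 0.23 without marked 1 and 6), Myh3 (-0.64 to 0.51, 0.51 under the block), Col4a1 (-0.33 to 0.00, 0.10 under the block, 0.04 without marked 1 and 6), Timp3 (-0.37 to 0.07, 0.04), Lox (-0.06 without marked 1 and 6) and Pcna (-0.22 to 0.15, 0.15). The difference in total reads ran between -928857 and 2304581. At these depths, genes under about 0.182 CPM rest on 3 reads or fewer.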

Other observations

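Gene groups outside the 4 themes were looked at after the data had been seen, and are given as counts beside the 13.6% of tested genes higher and 14.1% lower over the whole table. Imprinted growth genes moved in both directions, with 5 of 18 higher and 4 lower (median log2 fold change 0.36). Igf2, the fetal insulin-like growth factor, had 4.28, 18.1, 3.78, 3.45 and 25.7 CPM in marked and 147, 123, 138 and 178 CPM in unmarked controls (-4.23 ± 0.56, limma adjusted p = 0.000542). Mest, another paternally expressed gene, had 1078, 4705, 2903, 2621 and 2824 CPM in marked and 330, 286, 537 and 686 CPM in unmarked controls (2.56 ± 0.40, adjusted p = 0.00124). Neither gene overlapped between the cohorts, and their directions were opposite. The receptor gene Igf2r fell (-1.42 ± 0.33, adjusted p = 0.00824). Of 7 tested oncofetal growth genes 3 rose and 0 fell; Hmga2, a chromatin protein gene of embryonic cells, had 3.52, 4.82, 4.90, 5.45 and 0.839 CPM in marked and 0 to 0.442 CPM in unmarked controls (4.13 ± 0.86, adjusted p = 0.00514). Hoxc9 was the 1 of 9 tested Hox genes that passed, at 0 to 0.314 CPM in marked and 1.29 to 3.92 CPM in unmarked controls (-4.34 ± 0.87, adjusted p = 0.00430).

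Signalling genes were mixed. Of 19 tested BMP and Id genes 3 rose and 5 fell, Id2, an inhibitor of myogenic factors, being at 19.5, 53.4, 22.1, 30.7 and 55.2 CPM in marked and 226, 244, 273 and 182 CPM in unmarked controls (-2.79 ± 0.33, adjusted p = 0.000307). Of 32 tested Wnt pathway genes 6 rose and 3 fell: Sfrp2, a secreted Wnt binder, was at 86.2 to 292 CPM in marked and 3.14 to 47.2 CPM in unmarked controls (3.53 ± 0.67, adjusted p = 0.00322), and the Wnt agonist gene Rspo1 had 2 reads in all marked controls and 2.05 to 12.9 CPM in the unmarked ones, an unmarked to marked ratio of 326 (95% counting interval 89.7 to 2697). Of 18 retinoic acid pathway genes 5 rose and 2 fell, with the binding protein gene Crabp1 at 0.485 to 20.0 CPM in marked and 0 to 0.361 CPM in unmarked controls (6.17 ± 1.12, adjusted p = 0.00253) and the receptor gene Rarg lower (-1.85 ± 0.42, adjusted p = 0.00738). Gadd45a, a stress gene on the p53 target list (5 of 20 higher, 3 lower), was at 41.7 to 116 CPM in marked and 425 to 680 CPM in unmarked controls (-2.84 ± 0.28, adjusted p = 0.000123). Interferon and antigen presentation genes (0 of 28 higher, 5 lower), cholesterol synthesis genes (1 of 19 higher, 5 lower) and nuclear encoded respiratory chain genes (5 of 42 higher, 5 lower) make up the rest of these lists.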
